A study of Drosophila melanogaster with 26 samples.

Results

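The rat monoclonal antibody 3F1 and the rabbit polyclonal serum Rb2 both recognise ACF1, and each was used for ChIP-seq on 3 chromatin preparations of wild-type Drosophila melanogaster embryos. The members described here are these 6 libraries, chosen by their labels (ACF1-3F1 WT and ACF1-Rb2 WT, replicates 1 to 3), out of 26 libraries in the series. A further ACF1 serum, Rb1, was used on wild-type chromatin in 1 library and was left out of the choice of regions. All embryos were unstaged, collected 0-12 h after egg laying, of the strain Oregon-R and fixed with 3.7% formaldehyde. The 3F1 libraries came from chromatin batches 1, 2 and 3, and the Rb2 libraries from batches 6, 7 and 8.

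The series also holds 7 antibody libraries that the choice of regions did not use. They are Rb1 on wild-type embryos (batch 6), Rb1 on acf1-7 embryos (batch 4), Rb2 on acf1-7 embryos (batches 4 and 5), an RSF-1 rabbit serum on wild-type embryos (batches 10 and 6), and that serum on rsf1-3602 embryos (batch 9). Both mutations are deletions left by imprecise excision of a P element, and they were used as embryos without the respective protein. The acf1-7 deletion does not reach the stretch of ACF1 that Rb1 and Rb2 were raised against. From Western blots and immunofluorescence, the paper reports that neither ACF1 nor RSF-1 was expressed in the respective mutant embryos. Background comes from 3 libraries of pre-immune serum and from 10 inputs, 1 per batch.

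ACF1 is the signature subunit of the nucleosome remodelers ACF and CHRAC, in which it accompanies the ATPase ISWI. These complexes slide nucleosomes and space them evenly along DNA. RSF-1 is the partner of the same ATPase in the related complex RSF. Rb2 was raised against a C-terminal stretch of ACF1. 3F1 was raised against the full-length protein but binds an epitope in its N-terminal part. A polyclonal serum is a mixture of antibodies against many epitopes, whereas a monoclonal antibody binds a single epitope. The procedures also differed, with Rb2 incubated overnight and collected on mixed protein A and G beads, and 3F1 used in excess on pre-sorbed protein G beads for a few hours. No chromatin batch was used with both antibodies in wild-type embryos, so antibody, batch and procedure cannot be told apart in any value below.

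Each library was deposited as a list of peaks, which are genome intervals enriched in reads, of 200 bp apart from 1 or 2 peaks in 4 of the 6 lists, on genome Release 5 and without a height or score. The 3F1 lists held 2574, 3928 and 2130 peaks (replicates 1, 2 and 3), against 2556, 4009 and 3755 peaks in the Rb2 lists. The ranges overlapped, and the difference in mean log2(peaks + 1) of -0.28 was not larger than the spread between replicates (two-sided exact permutation test, p = 0.5, n = 3 each). With 3 libraries against 3 this test cannot give a p below 0.1, so no difference between these groups can pass 0.05. The input libraries of the same batches gave 398, 2359 and 1045 peaks for batches 1, 2 and 3, against 250, 263 and 254 peaks for batches 6, 7 and 8. The inputs behind the 3F1 libraries all had longer lists than those behind the Rb2 libraries. Nonetheless, few peaks were shared with the input of the same batch: 3.89, 5.35 and 3.85% of the 3F1 peaks, and 6.49, 3.74 and 2.58% of the Rb2 peaks. The length of the input lists limits these shares. In counts they were 100, 210 and 82 3F1 peaks and 166, 150 and 97 Rb2 peaks. Read against the input lengths, the overlap was thus larger for the Rb2 libraries. The paper lists these inputs as the controls of the 6 profiles. Whether they entered the peak calling was not checked, and such use would lower these shares beforehand.

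Over whole lists, the antibodies overlapped in the share of peaks on each chromosome. The largest share lay on 3R, with 20.1% ± 0.510 for 3F1 and 20.8% ± 1.66 for Rb2 (SD, n = 3 each). X held 18.5% ± 0.0632 of the 3F1 peaks and 18.0% ± 0.463 of the Rb2 peaks. On 2R the shares were 15.9% ± 0.931 and 17.0% ± 1.33 for 3F1 and Rb2, the widest gap of all sequence classes (difference -1.12 percentage points, p = 0.3 by the exact permutation test). None of the 9 classes passed, and each adjusted p was 1 (Benjamini-Hochberg). At an unadjusted p under 0.05 the count was 0, which the design fixes. The gaps were wider with every list shortened to its first 2130 peaks, the length of the shortest. The difference (3F1 minus Rb2) was then -3.51 percentage points on 3R, -2.69 on 2R and 1.1 on chromosome 4, each with an exact permutation p of 0.1, the smallest possible.

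**Figure D1:**
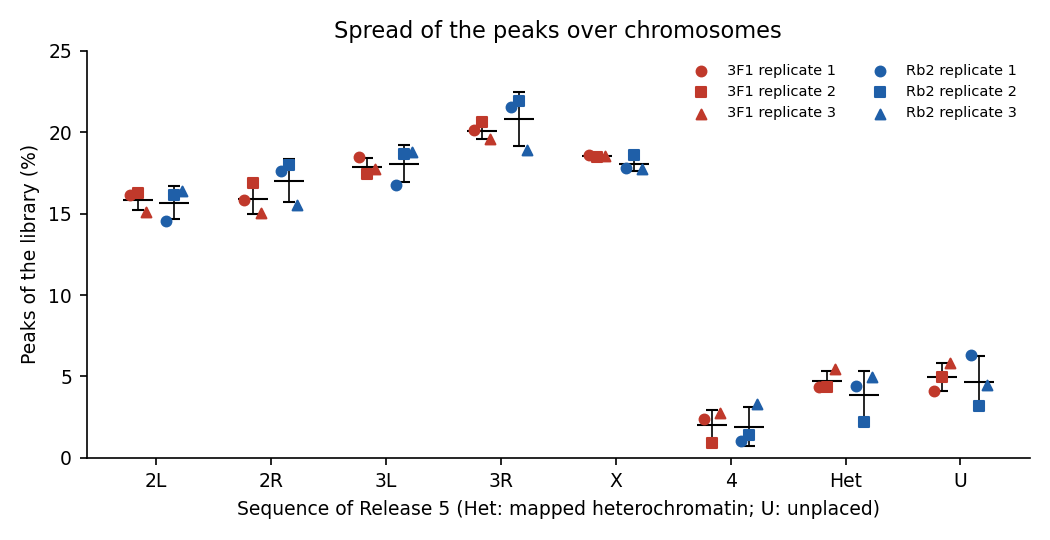
Percent of each library's peaks (y axis) on each sequence of Release 5 (x axis), 3F1 in red and Rb2 in blue, 1 symbol per replicate, with black bars for the mean ± SD of 3 libraries. The ranges of the antibodies overlap on each sequence shown, and chromosome 4 varies more between replicates than between antibodies.

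Chromosome 4, the small and largely heterochromatic autosome, varied between replicates of either antibody. Its share was 2.37, 0.916 and 2.72% of the 3F1 peaks, against 1.06, 1.37 and 3.28% of the Rb2 peaks, so the groups overlapped. Sequence off the arms 2L, 2R, 3L, 3R, X and 4 (heterochromatic scaffolds, unplaced sequence and the mitochondrial genome) held 8.51, 9.45 and 11.3% of the 3F1 peaks and 10.7, 5.36 and 9.43% of the Rb2 peaks. In the inputs these sequences held far larger shares, namely 71.1, 41.0 and 53.5% of the input peaks of batches 1, 2 and 3, and 88.8, 82.1 and 88.2% of those of batches 6, 7 and 8. The lists of both antibodies lay mostly on the arms.

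The ratio of peaks on X to peaks on the 4 large autosomal arms was the single measure of spread in which the groups did not overlap. It was 0.264, 0.260 and 0.275 with 3F1, against 0.253, 0.249 and 0.255 with Rb2. The difference of 0.0138 had p = 0.1, the lowest that this exact permutation test can give. With lists shortened to 2130 peaks, the difference was 0.0228 with p = 0.5 by the same exact test.

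Joining peaks that overlapped by at least 50 bp gave 7616 regions. Of these, 4738 had a peak in at least 1 3F1 list, 5845 in at least 1 Rb2 list and 2967 in lists of both antibodies. The full set of 6 libraries shared 786 regions. A peak in all 3 3F1 libraries and in no Rb2 library was found for 147 regions (1.93% of the 7616 regions), called 3F1-only below. The reverse, a peak in all 3 Rb2 libraries and in no 3F1 library, held for 315 regions (4.14% of the 7616), called Rb2-only. As these calls chose the regions, the counts are a description and no test was made on them. Single-library regions were far more frequent, with 271, 1041 and 69 in 3F1 replicates 1, 2 and 3, and 111, 619 and 1384 in Rb2 replicates 1, 2 and 3.

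**Figure D2:**
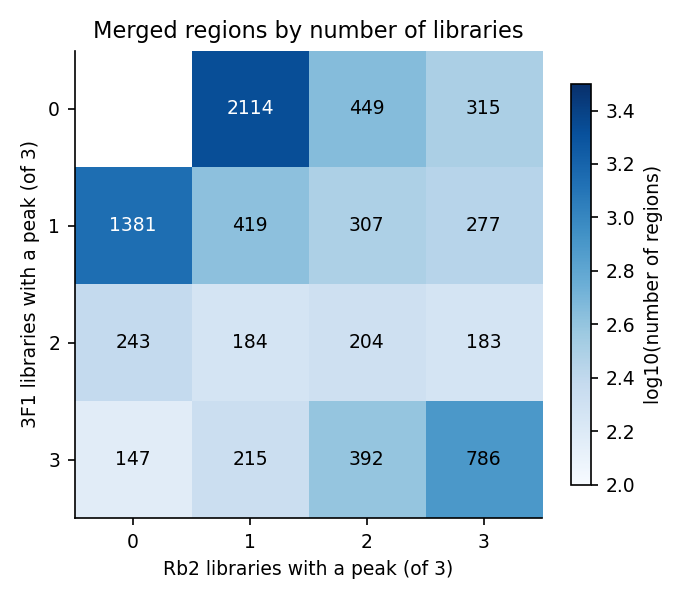
Number of merged regions by the number of 3F1 libraries (rows) and of Rb2 libraries (columns) with a peak there, with the colour giving log10 of the count. The corner cells hold the 147 3F1-only, 315 Rb2-only and 786 shared regions, and the cells for a single library are the fullest.

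Read as a share of each antibody's own reproducible regions, 51.0% of the 1540 regions found by all 3F1 libraries were in all Rb2 libraries, and 9.55% were in none. Of the 1561 regions found by all Rb2 libraries, 50.4% were in all 3F1 libraries and 20.2% in none. The counts depended on single libraries. Without 3F1 replicate 2, 3F1 replicate 3 or Rb2 replicate 2 there were 238, 266 or 312 3F1-only regions. Leaving out 3F1 replicate 2 or Rb2 replicate 1 gave 556 or 666 Rb2-only regions. Requiring fewer libraries admits more regions by construction. With all lists shortened to 2130 peaks the counts were 232 3F1-only and 379 Rb2-only regions.

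Some regions of a single antibody were close to a peak of the other. A peak of the other antibody lay within 500 bp of 44 of 147 3F1-only regions (29.9%) and of 72 of 315 Rb2-only regions (22.9%). An overlap too short to count, under 50 bp, was present at 5 3F1-only and 11 Rb2-only regions. Within 5000 bp the shares were 63.3% and 61.0% for 3F1-only and Rb2-only regions. This left 103 3F1-only and 243 Rb2-only regions with no such peak within 500 bp. Where a 3F1-only and an Rb2-only region lay side by side, each was counted in its own set. The distances were not measured for other regions or positions, so whether these shares are high was not tested. The median width was 220 bp for 3F1-only, 229 bp for Rb2-only and 247 bp for shared regions.

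The 3 sets of regions were counted on each chromosome. X held 32 of 147 3F1-only regions (21.8%, 95% Clopper-Pearson interval 15.4 to 29.3), 54 of 315 Rb2-only regions (17.1%, 13.1 to 21.8) and 188 of 786 shared regions (23.9%, 21.0 to 27.1), against 16.9% of all 7616. On 3R lay 21.1% of the 3F1-only, 26.7% of the Rb2-only and 22.9% of the shared regions. 3L held 23.1, 18.4 and 15.8%, and 2R held 14.3, 21.0 and 14.5%, of the 3F1-only, Rb2-only and shared regions. Off the arms were 8 3F1-only regions (5.44%), 3 Rb2-only regions (0.952%) and 61 shared regions (7.76%), against 10.7% of all regions. The intervals cover counting error alone, and these shares are a description of the chosen regions.

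The 5 3F1-only regions highest in the 3F1 lists, by the mean of their line numbers relative to list length, lay on X, 3L, 3R and 2L. The top region, X:17781476-17781685, stood at lines 76, 46 and 101 of the 3F1 lists and was called in 3 of the 7 other antibody libraries. 3L:17662707-17662913 stood at lines 89, 54 and 147 and was called in none of the 7. Between these cases, 3R:5694285-5694501 (lines 86, 160 and 113) and 3R:10720166-10720374 (lines 161, 68 and 211) were called in 3 and 2 of them. 2L:16288155-16288359 (lines 90, 154 and 166) was again called in none. None of the 5 had a peak in any input or pre-immune library. However, an Rb2-only region lay within 500 bp of X:17781476-17781685, and another within 500 bp of 2L:16288155-16288359. At these positions both antibodies thus had reproducible peaks side by side.

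By the same measure, the 5 Rb2-only regions highest in the Rb2 lists were 1 region on chromosome 4 and 4 on 3L. The highest, 4:89273-89520, stood at lines 14, 19 and 15 of the Rb2 lists, had no peak in any 3F1 list, and was called in all 7 other antibody libraries. 3L:16581245-16581456 (lines 48, 103 and 44) was also called in all 7. The other three, 3L:6736793-6737010 (lines 73, 49 and 41), 3L:17005604-17005816 (lines 91, 56 and 31) and 3L:20369170-20369427 (lines 74, 41 and 73), were called in 4, 5 and 5 of them. These too were free of input and pre-immune peaks. The genes at these positions were not analysed here.

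At the top of the shared regions were 2 that every input also called. X:21834806-21835077 stood at lines 1, 3 and 1 of the 3F1 lists and lines 1, 39 and 1 of the Rb2 lists, and U:9151165-9151369 at lines 4, 6 and 2 and lines 2, 54 and 2. Both had peaks in all 10 inputs. The next 3 had none in any input. 2L:18152401-18152697 stood at lines 16, 67 and 14 with 3F1 and 41, 62 and 47 with Rb2. 3L:16640983-16641219 was at lines 29, 55 and 30 with 3F1 and 51, 111 and 56 with Rb2, and 3R:12086141-12086388 at lines 36, 14 and 42 with 3F1 and 49, 125 and 164 with Rb2.

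Rb2-only regions were called more often than 3F1-only regions in each of the 7 antibody libraries that the choice did not use. Peaks of the RSF-1 serum on wild-type embryos were present at 52.4 and 6.80% of 3F1-only regions (replicates 1 and 2), at 92.7 and 92.1% of Rb2-only regions, and at 96.9% of shared regions in either replicate. Of all 7616 regions these replicates called 56.4 and 42.8%. In rsf1-3602 embryos the same serum called 40.8% of 3F1-only, 90.8% of Rb2-only and 96.4% of shared regions. Thus the serum called Rb2-only regions at like shares in embryos with and without RSF-1, and 3F1-only regions at unlike shares in its wild-type replicates.

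Rb2 itself, used on acf1-7 embryos, called none of the 147 3F1-only regions in replicate 1 (which allows a share of up to 2.04%) and 36.7% in replicate 2. It called 65.1 and 95.6% of the Rb2-only regions and 76.7 and 98.0% of the shared regions in these libraries. Rb1 called few regions of either single-antibody set: 4.08% of 3F1-only and 5.40% of Rb2-only regions in wild-type embryos, and 2.72 and 10.5% in acf1-7 embryos, while it called 62.7 and 45.0% of the shared regions. Of all 7616 regions, Rb2 on acf1-7 embryos called 23.1 and 53.6%, the RSF-1 serum on rsf1-3602 embryos 52.2%, and Rb1 12.7% in wild-type and 14.8% in acf1-7 embryos. The 3F1-only shares lay below these in each of the 7 libraries, and the Rb2-only shares above them in all but the Rb1 libraries. The 7616 include regions with Rb2 peaks, which the choice bars from 3F1-only and requires in Rb2-only. Shares were also counted for regions in 1 or 2 3F1 libraries and no Rb2 library. RSF-1 wild-type replicate 1 (31.8 and 36.2%) and Rb2 acf1-7 replicate 2 (24.5 and 23.9%) called these less often than 3F1-only regions. RSF-1 wild-type replicate 2 (7.10 and 12.3%) and Rb2 acf1-7 replicate 1 (1.30 and 3.70%) called them more often. On wild-type embryos the counting intervals of the Rb1 shares overlapped (1.51 to 8.67% for 3F1-only and 3.17 to 8.50% for Rb2-only regions). All 7 libraries were made with rabbit sera, and their lists ran between 1001 and 5636 peaks. List length moved with the share of 3F1-only regions called, since the 3 lists of over 5000 peaks called 36.7 to 52.4% and the 4 shorter ones 0 to 6.80%, and its part in the difference between the sets was not tested.

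**Figure D3:**
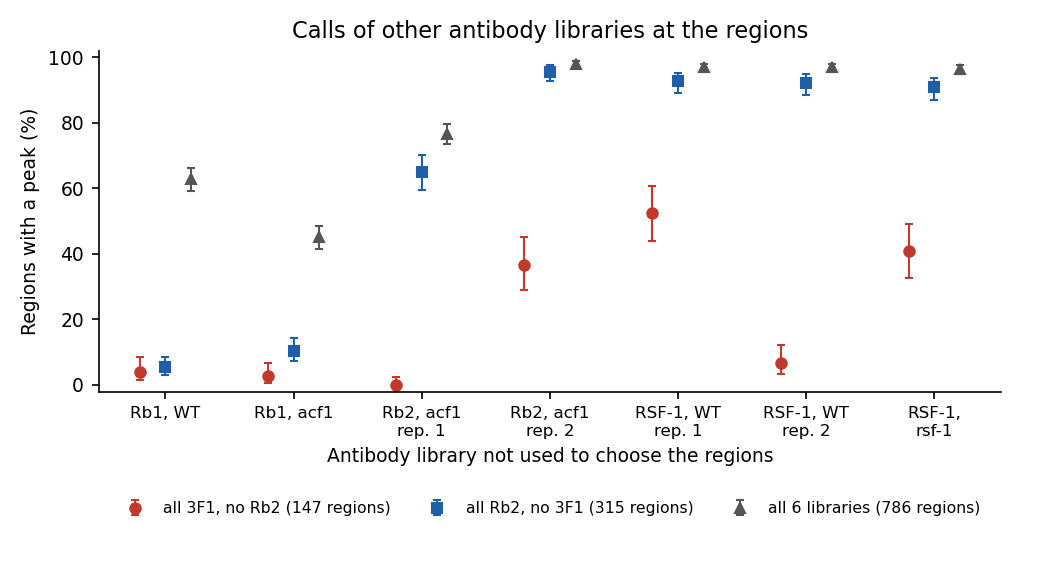
Percent of 3F1-only (red), Rb2-only (blue) and shared (grey) regions with a peak (y axis) in each of the 7 antibody libraries that did not choose them (x axis), with bars for the 95% Clopper-Pearson interval. The blue squares lie above the red circles in each library, and their intervals overlap only for Rb1 on wild-type embryos.

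Averaged within the 5 chromatin batches, these libraries called 27.3% of 3F1-only and 73.1% of Rb2-only regions. The difference, Rb2-only minus 3F1-only, was lowest in batch 4 (36.4 percentage points) and highest in batch 5 (58.8), the batches of acf1-7 embryos, and was 43.3 in batch 6 and 40.3 in batch 10. Its mean was 45.8 ± 8.82 (SD, n = 5 batches), it was positive in 5 of 5 batches, and p was 0.063, the smallest that a two-sided exact sign-flip permutation test over 5 batches can give. The batches share sera (Rb1, Rb2 and the RSF-1 serum), which this test does not take into account. Batches 4 and 5 include Rb2, the serum whose wild-type calls chose the Rb2-only regions. Batch 6 also supplied Rb2 replicate 1, and without it the mean difference was 46.4. With the wild-type 3F1 and Rb2 lists cut to equal length the mean difference was 32.1. That cut changed the choice of regions and did not equalise the lists of the libraries that called them.

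Counting over all 7 libraries, 55 of the 147 3F1-only regions (37.4%) were called in none, against 0 of the 315 Rb2-only regions and 0 of the 786 shared regions. At least 1 library of mutant embryos called 76 3F1-only regions (51.7%), 308 Rb2-only regions (97.8%) and 784 shared regions (99.7%). Neither count was made over all 7616 regions, of which the 7 libraries singly called between 12.7 and 56.4%. These shares therefore describe the chosen sets, and whether they are particular to them was not tested. 3F1 was not used on mutant embryos in the libraries analysed here, so no matching count was made for that antibody.

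The inputs called few of the regions, with the limit, given above, that the paper lists inputs as controls of the profiles. For 3F1-only regions the share was 2.72, 2.72 and 2.04% in the inputs of the 3F1 batches and 1.36, 1.36 and 0.680% in those of the Rb2 batches. The groups did not overlap (difference 1.36 percentage points, exact permutation p = 0.1, the smallest possible), but each share rests on 4 regions or fewer. The difference was 0.630 without 3F1 replicate 2, 2.43 without 3F1 replicate 1 and 0.480 on the arms alone. It was 0.287 with the wild-type 3F1 and Rb2 lists cut to equal length, which did not equalise the lengths of the input lists. For Rb2-only regions the mean was 0.423% in the inputs of the 3F1 batches and 0.212% in those of the Rb2 batches (exact permutation p = 0.6). Any of the 10 inputs called 7 3F1-only regions (4.76%), 3 Rb2-only regions (0.952%) and 64 shared regions (8.14%). Of the pre-immune libraries, 2 called 3.40 and 1.36% of 3F1-only and 0.635 and 0% of Rb2-only regions, and the third held a single peak.

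On average, lists of the same antibody were more alike than lists of different antibodies. The overlap of 2 lists, as the percent of their joint regions that both hold, averaged 33.1% between a 3F1 and an Rb2 list (9 pairs, 22.1 to 41.2%) and 44.3% within an antibody (6 pairs, 34.1 to 62.7%). The ranges overlapped. The difference of -11.3 percentage points had p = 0.1 by an exact permutation test over the 10 ways to split 6 libraries into groups of 3, the smallest it allows. It was -7.00 without 3F1 replicate 1 and -20.3 with lists of equal length. Without Rb2 replicate 3 it was -10.2, with p = 0.2 by exact permutation of the remaining libraries. 3F1 replicate 2 overlapped Rb2 replicates 1 and 2 at 41.0 and 41.2%, against 41.3 and 38.2% for 3F1 replicates 1 and 3. Where peaks of 2 lists overlapped, their centres lay 19.4 bp apart between antibodies and 15.8 bp within (mean of the pair medians). That difference of 3.61 bp also had an exact p of 0.1, and without 3F1 replicate 1 it was 1.08 bp with p = 0.5.

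The order of lines within a list was not by position, and replicates placed shared peaks in like order, so the line number was used as a peak's place, with line 1 as the top. What the order stands for was not given in the sources used here. Near the top of a list the antibodies overlapped most. Of the first 500 peaks, 90.6, 91.4 and 95.0% in the 3F1 lists had a peak in at least 1 Rb2 list, and 89.0, 84.2 and 79.2% in the Rb2 lists had a peak in at least 1 3F1 list. The difference of 8.20 percentage points had an exact permutation p of 0.1, the smallest possible, but it was -1.50 without Rb2 replicate 2 and 24.1 without 3F1 replicate 2, and p was 0.3 for the first 1000 peaks.

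Sharing fell with depth in the list. Each list was divided into 10 bins of equal size. In the top bin, 94.6, 92.6 and 96.7% of 3F1 peaks and 90.6, 85.5 and 81.4% of Rb2 peaks were shared with the other antibody. In the last bin the shares ran between 29.6 and 56.8% with 3F1 and between 9.60 and 61.6% with Rb2. Rb2 replicate 3 stood apart, since in each of its last 3 bins no more than 13.6% of its peaks were shared with 3F1 and no more than 14.4% with the other Rb2 lists. 3F1 replicate 2 likewise shared only 21.7% of its last bin with other 3F1 lists. These replicates also held the most single-library regions of their antibody.

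**Figure D4:**
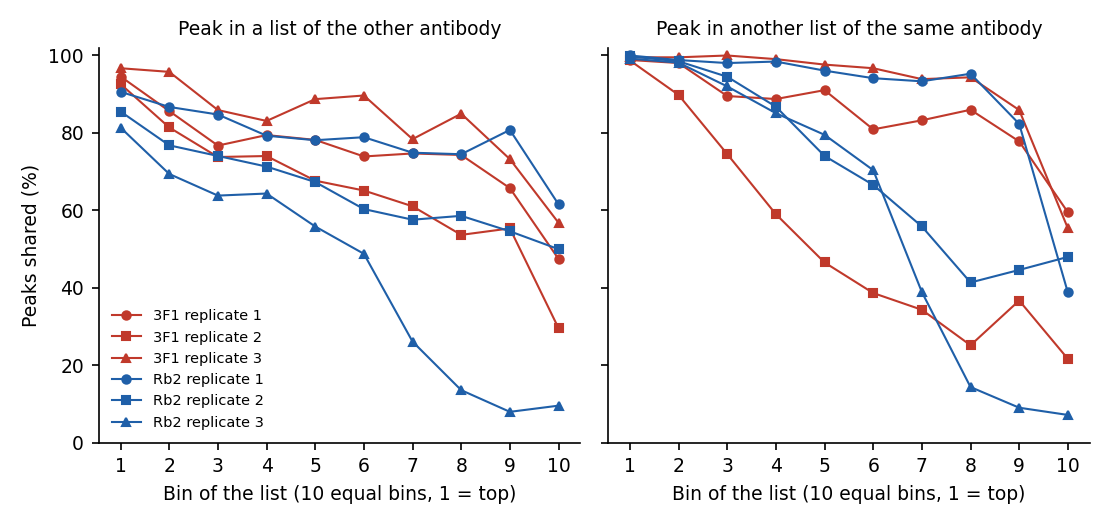
Percent of peaks shared (y axis) in 10 equal bins of the deposited list from its top (x axis), with a list of the other antibody (left panel) and with another list of the same antibody (right panel), 1 line per library. All lines start at 81.4% or more in the top bin, and Rb2 replicate 3 stays at or below 14.4% in its last 3 bins.

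Over whole lists, 75.1, 65.5 and 83.3% of 3F1 peaks had a counterpart in an Rb2 list, against 79.0, 65.6 and 44.1% of Rb2 peaks with one in a 3F1 list. The median place of these shared peaks, in percent from the top, was 44.9, 40.8 and 46.2 in the 3F1 lists and 46.9, 43.2 and 30.9 in the Rb2 lists. The groups overlapped (difference 3.61 percentage points, exact permutation p = 0.7), and without Rb2 replicate 3 the sign turned, to -2.01.

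Single-antibody regions were not confined to the bottom of the lists. 3F1-only regions had a median place of 46.1, 24.1 and 51.6% from the top of the 3F1 lists. Of the 147, 11, 25 and 7 stood in the top bin of 10 (7.48, 17.0 and 4.76%), which holds 10% of each list. For Rb2-only regions the median place was 46.6, 25.1 and 19.9% in the Rb2 lists. Of the 315, 21, 55 and 65 stood in the top bin (6.67, 17.5 and 20.6%). Shared regions stood at medians of 32.2, 23.0 and 34.1% in the 3F1 lists and 30.6, 21.3 and 23.5% in the Rb2 lists. Their shares in the top bin were higher, at 21.6, 26.0 and 19.5% with 3F1 and 20.9, 27.1 and 25.4% with Rb2.

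The antibodies ordered the 786 shared regions differently, although all of them were called in every library. Spearman's rho between the places in 2 lists was 0.867 to 0.952 among the 3F1 lists and 0.784 to 0.891 among the Rb2 lists. Between a 3F1 and an Rb2 list it was 0.236 to 0.485, so each of the 9 pairs across antibodies lay below each of the 6 pairs within. The means were 0.378 between antibodies and 0.864 within, a difference of -0.49 (p = 0.1 by exact permutation over the 10 splits, the smallest possible). With each library left out in turn the difference ran between -0.50 and -0.45. Regions are not independent replicates, and the lists of a pair share no library.

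Of the shared regions, 240 (30.5%) stood ahead in every 3F1 list of their place in any Rb2 list, counting places among the 786. Another 222 (28.2%) stood ahead in every Rb2 list, and for 324 (41.2%) the places of the antibodies overlapped. Without Rb2 replicate 3, which leaves 1081 shared regions, 380 were ahead with 3F1 and 348 with Rb2. X held 22.9% of the regions ahead with 3F1, 24.8% of those ahead with Rb2 and 24.1% of the rest. Of the 61 shared regions off the arms, 4 were ahead with 3F1 and 7 with Rb2, and for 50 the places overlapped.

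**Figure D5:**
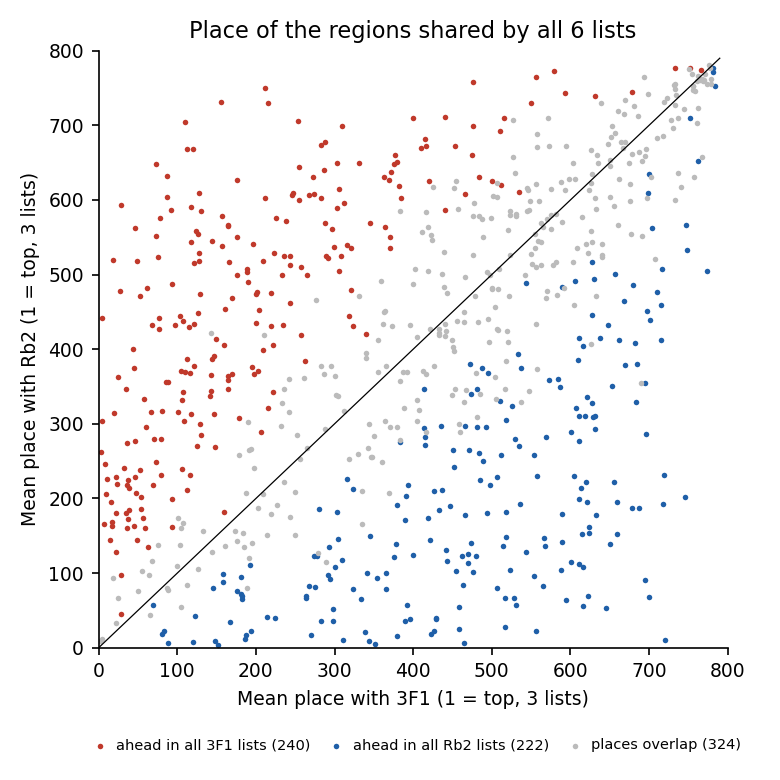
Mean place of each of the 786 shared regions in the 3 3F1 lists (x axis) and in the 3 Rb2 lists (y axis), counted among the shared regions with 1 as the top and with the diagonal drawn. Red points (240) stood ahead in every 3F1 list, blue points (222) in every Rb2 list, and both colours reach far from the diagonal.

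Some leads spanned most of the list, of which 4 outside 2R are given. X:18922705-18922956 stood at places 143, 182 and 142 among the 786 with 3F1, against 744, 710 and 740 with Rb2. Near the 3F1 top, 2L:14287948-14288202 was at places 9, 56 and 22 with 3F1 and 676, 633 and 471 with Rb2. In the other direction, X:6240952-6241284 stood at places 693, 744 and 664 with 3F1 and 108, 63 and 33 with Rb2, and 3R:1688029-1688278 at 713, 682 and 689 with 3F1 and 132, 104 and 38 with Rb2. These 4 were picked after their values were seen. None had a peak in an input.

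The other antibody libraries placed the regions ahead with Rb2 higher in their own lists. Counting places in percent among the shared regions each library called, the median of the regions ahead with 3F1 minus that of the regions ahead with Rb2 was 5.78 for Rb1 on wild-type and 21.2 for Rb1 on acf1-7 embryos. It was 35.1 and 45.3 for Rb2 on acf1-7 embryos, 24.7 and 32.7 for RSF-1 on wild-type embryos, and 27.7 for RSF-1 on rsf1-3602 embryos. A positive value means that regions ahead with Rb2 stood nearer to the top. Over batches the medians averaged 58.0% for regions ahead with 3F1 and 29.0% for those ahead with Rb2, a difference of 29.0 ± 9.79 percentage points (SD, n = 5 batches, positive in 5 of 5, exact sign-flip permutation p = 0.063, the smallest possible). Of these 7 rabbit-serum libraries, 4 came from mutant embryos, and the batches share sera here too. Batches 4 and 5 include Rb2, the serum whose wild-type order chose the regions ahead with Rb2, so those batches are not independent of the choice. The difference was 27.6 without Rb2 acf1-7 replicate 1 and 24.9 without replicate 2. Without batch 6 the difference was 31.5.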

How the data were processed

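ChIP-seq peak lists of 26 libraries were analysed, of which 6 were compared. Per the labels and the study's methods, the authors aligned single-end reads to Release 5 of the genome (dm3) with Bowtie 1.1.1, kept reads with a unique hit, and called peaks of fixed width in each library with HOMER at default settings. The deposited files hold positions alone (chromosome, start and end), with no count, height or score, so the depth in reads of each library cannot be taken from them and the length of a list limits what it can share. Fixed-width calling can merge or split broad signal, and the demand for unique hits can remove peaks in repeats.

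Peaks of the 6 lists overlapping by at least 50 bp were joined into regions. Coordinates are printed as deposited. The line number in a list was used as the peak's place. Groups were taken from the titles. Differences between the antibodies were tested by exact permutation of the libraries, two-sided (20 splits of 3 against 3, or 10 splits for values between pairs of lists), with Benjamini-Hochberg adjustment over 9 sequence classes, and other libraries with sign-flip permutation over 5 chromatin batches. Two-sided p-values were read against 0.05. The labels name separate chromatin batches for the 3 libraries of each antibody, so p-values measure the spread between batches. Counts of regions carry Clopper-Pearson intervals at 95% and, at 0, an upper limit of 3 counts, both for counting error alone. The regions named were the 5 of each set with the best mean place, leaving out 2R, whose regions were counted but not listed by position, and 4 of those with the widest lead. Members, lists and tests were chosen with earlier results of these data known, and the values on the order of the shared regions were added after the files were seen. Replicate numbers did not pair the libraries, which share no batch.

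Alternatives were overlaps of 1 and 150 bp, chromosome arms alone, lists without peaks of the same-batch input, lists of equal length, a peak in at least 2 libraries, a distance of 500 bp to the other antibody, the first 1000 peaks, and leaving out single libraries. For lists of equal length, the wild-type 3F1 and Rb2 lists were cut to the shortest of them. The lists of the other libraries were not equalised. The code was tested on simulated lists. Sequences under the peaks and their genes were not analysed here, since the gene table at hand is of Release 6. Scripts ran on Python 3.11.15 with scipy 1.17.1, numpy 2.4.6 and, for plots, matplotlib 3.10.9.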

Additional observations from a re-analysis of the deposited data

Results flagged for a closer look

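The input library of batch 2, whose chromatin also gave 3F1 replicate 2, had 2359 peaks, set apart from the other 6 wild-type inputs, of which the next longest held 1045. The gap was 0.623 of the whole range of the 7 inputs (above Dixon's critical value at the 95% level), and about 1 group in 20 would be marked by chance. It called 5.60% of the shared regions, the lowest share of any wild-type input.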

How the results depend on the processing

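Over 25 results and 295 alternatives, 261 kept their direction and size or side of the threshold, and 22 changed sign. The difference in peaks per library, the shares of 2R, 3R, X and heterochromatic scaffolds, the X to autosome ratio, the overlap of lists, the centre offset, the number of shared regions and the agreement of places kept their direction under each alternative run for them, though not their size.

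Among the small differences in chromosome share (3F1 minus Rb2, percentage points), 3L turned to 0.0759 on the arms alone and to 0.689 with lists of equal length. The difference in input calls at Rb2-only regions turned to -0.219 at an overlap of 150 bp and to -0.436 for regions of at least 2 libraries. At 3F1-only regions it turned to -3.83 without peaks of the same-batch input, which removes calls of those inputs by construction. With lists of equal length the median place of shared peaks differed by -2.82, and there were 232 3F1-only regions. A peak in at least 2 libraries of an antibody and none of the other gave 390 3F1-only and 764 Rb2-only regions, a looser rule by construction. Taking each of the 7 other libraries on its own, not by batch, gave differences of 44.1 in calls and 27.5 in places, each with an exact sign-flip p of 0.0156.

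With each library left out in turn, 3F1-only regions numbered 170 to 312, Rb2-only regions 334 to 666, regions ahead with 3F1 258 to 380 and those ahead with Rb2 249 to 348. The difference ran from -0.43 to 0.51 for 2L, -0.84 to 0.18 for 3L, -0.32 to 0.79 for chromosome 4, -0.43 to 1.14 for unplaced sequence, -1.09 to 0.30 for input calls at Rb2-only regions, -2.01 to 6.99 for the place of shared peaks, and -1.50 to 24.1 for the first 500 peaks. The cause of these changes was not tested.

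The replicate numbers are shared between antibodies but name different batches. Same-numbered libraries deviated together with correlations of -0.10, 0.018 and 0.18, so the numbers were not taken as pairs. With the replicate number as a block (exact sign-flip over 3 pairs, smallest p 0.25) the X to autosome ratio had p = 0.25, the first 500 peaks p = 0.25 and the place of shared peaks p = 1, with the same differences of 0.0138, 8.20 and 3.61, and no result passed with or without the block.

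Lists without heights limit every comparison to calls and line order. The smallest p is 0.1 with 3 libraries against 3 and 0.063 with 5 batches, so neither kind of test can pass 0.05. The tests over the 7 single libraries, given above, did pass it, and they treat libraries of a batch as independent.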
